A study of Mus musculus with 6 samples.

Results

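The genes of NuRD, a complex that remodels nucleosomes and deacetylates histones, were examined for peaks of Chd4, the complex's own ATPase, and of the nucleoporin Seh1 in mouse neural stem cells. The members were 10 genes, Chd4, Mta1, Mta2, Hdac1, Hdac2, Mbd3, Gatad2a, Gatad2b, Rbbp4 and Rbbp7, of 21887 protein-coding genes in the RefSeq table. A peak was taken when its deposited gene name, that of the nearest transcription start site (TSS), was one of the 10, or when it lay inside the Chd4 gene. This rule took 63 of the 97783 peaks in the 6 lists: 16 from Seh1-flag, 7 from Seh1 Ctrl, 0 from Chd4 Ctrl, 8 from Chd4 iKO, 10 from Chd4 siSCR and 22 from Chd4 siSeh1. Of the 63 peaks, 11 lay within 1000 bp of a member's start site, 15 in an exon of the member, 18 in an intron of it and 19 elsewhere, either between genes or in the transcript of another gene.

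Chromatin immunoprecipitation and sequencing (ChIP-seq) had been done on primary neural stem cells, cultured from cortex of newborn mice with EGF and bFGF. All cells are labelled wild type except those of Chd4 iKO, labelled mutant. The Chd4 iKO and Seh1-flag cells were grown with 4-OH-TAM, the tamoxifen metabolite that activates inducible Cre enzymes, and the other 4 groups in growth medium alone. Seh1-flag carries iKO in its title but wild type as its genotype. The names siSCR and siSeh1 are read here as a control and a Seh1 silencing RNA, and iKO as an induced deletion of Seh1; the sources used here do not give the alleles, the Cre line or the number of animals. Each of the 6 groups had 1 library, so no difference between conditions has a replicate check and no p-value is given. The list lengths were 24961 (Seh1-flag), 20833 (Seh1 Ctrl), 1154 (Chd4 Ctrl), 21294 (Chd4 iKO), 2606 (Chd4 siSCR) and 26935 (Chd4 siSeh1), and the number of reads behind each is unknown. A peak list holds no expression level, so the labelled cell type could not be checked against its markers.

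NuRD (nucleosome remodelling and deacetylase) joins a remodelling and a deacetylating enzyme. Chd4 slides nucleosomes with the energy of ATP, and Hdac1 and Hdac2 remove acetyl groups from histones. Mta1 and Mta2 hold the deacetylases, Rbbp4 and Rbbp7 bind histone tails, Mbd3 bridges the deacetylase and remodelling parts, and Gatad2a and Gatad2b tie Mbd3 to Chd4. In the developing cortex NuRD is known for silencing progenitor and lineage genes as cells differentiate.

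The promoters that carried Chd4 peaks in several lists belonged to Gatad2a, Gatad2b and Mbd3, the genes of the link between the deacetylase core and Chd4 itself. Those of the histone-binding subunits Rbbp4 and Rbbp7 carried one in siSeh1. Their sequences are shown because Chd4 peaks lie inside these windows. They run from 250 bases before to 50 after the RefSeq start site on GRCm38.p6, the assembly of mm10. The Mbd3 peaks of siSeh1, at 80399805 and 80398966, lie outside the Mbd3 window. The capitals mark the stretch between the outermost peak positions inside the window or, where 1 list had a peak there, 10 bases on either side of it. The windows lie at chr8:69996335-69996634 (Gatad2a, minus strand), chr3:90292931-90293230 (Gatad2b, plus strand), chr10:80399482-80399781 (Mbd3, minus strand), chr4:129335321-129335620 (Rbbp4, minus strand) and chrX:162760122-162760421 (Rbbp7, plus strand), and each sequence is written 5′ to 3′ on the strand of its gene.
Gatad2a: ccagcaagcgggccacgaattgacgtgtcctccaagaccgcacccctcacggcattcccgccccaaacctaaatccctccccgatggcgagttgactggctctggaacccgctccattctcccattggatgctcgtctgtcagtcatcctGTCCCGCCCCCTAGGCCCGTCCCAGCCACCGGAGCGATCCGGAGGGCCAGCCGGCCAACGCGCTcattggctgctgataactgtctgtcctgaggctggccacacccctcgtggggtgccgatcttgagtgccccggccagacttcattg
Gatad2b: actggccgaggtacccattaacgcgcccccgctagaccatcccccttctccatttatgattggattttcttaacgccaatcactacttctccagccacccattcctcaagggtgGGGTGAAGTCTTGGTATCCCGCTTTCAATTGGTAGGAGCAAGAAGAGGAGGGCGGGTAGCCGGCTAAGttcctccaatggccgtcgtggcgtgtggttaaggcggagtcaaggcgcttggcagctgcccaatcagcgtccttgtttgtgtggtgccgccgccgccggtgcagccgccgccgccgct
Mbd3: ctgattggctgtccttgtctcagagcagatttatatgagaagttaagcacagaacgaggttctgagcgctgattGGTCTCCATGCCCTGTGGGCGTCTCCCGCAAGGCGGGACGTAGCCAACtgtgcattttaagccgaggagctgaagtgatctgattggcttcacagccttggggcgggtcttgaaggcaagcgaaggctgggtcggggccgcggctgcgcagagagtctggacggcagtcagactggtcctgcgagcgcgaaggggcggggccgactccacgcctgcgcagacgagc
Rbbp4: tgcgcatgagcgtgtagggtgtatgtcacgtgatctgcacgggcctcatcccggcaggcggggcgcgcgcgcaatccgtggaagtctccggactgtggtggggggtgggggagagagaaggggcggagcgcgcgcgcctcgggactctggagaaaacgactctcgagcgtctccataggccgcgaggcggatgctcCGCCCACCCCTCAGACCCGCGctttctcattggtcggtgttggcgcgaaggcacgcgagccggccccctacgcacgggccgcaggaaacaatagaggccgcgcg
Rbbp7: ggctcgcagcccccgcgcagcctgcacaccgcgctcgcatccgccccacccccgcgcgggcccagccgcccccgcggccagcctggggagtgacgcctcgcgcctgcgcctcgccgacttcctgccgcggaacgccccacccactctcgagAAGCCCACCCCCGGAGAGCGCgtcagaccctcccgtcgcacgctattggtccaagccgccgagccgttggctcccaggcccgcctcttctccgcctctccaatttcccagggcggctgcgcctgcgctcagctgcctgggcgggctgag

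The capitals cover 64 bases at Gatad2a (iKO, siSCR and siSeh1), 68 at Gatad2b (the same 3 lists) and 48 at Mbd3 (iKO and siSCR). The GC content of the capitals was 78.1% at Gatad2a, 55.9% at Gatad2b and 68.8% at Mbd3. The Gatad2a stretch holds 1 GC box (GGGCGG, searched on both strands), and the Gatad2b stretch holds 1 GC box and 1 CCAAT box (CCAAT, both strands). Neither sequence lies wholly in the capitals at Mbd3, Rbbp4 or Rbbp7, the last 2 of which have only 21 capitals each. A GC box at Rbbp4 and a CCAAT box at Mbd3, both on the opposite strand, run across the edge of the capitals.

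RefSeq windows were at hand for 9 of the 10 genes (all but Hdac1), 12 windows in all, since Chd4, Gatad2a and Gatad2b have 2 each and those of Chd4 overlap. All 12 held a GC box, as did 46.2% of the 21263 windows of protein-coding genes. A CCAAT box was in 8 of the 12 (38.2% of all windows), the TATA box TATAAA in 1 (12.6%), the E box CACGTG in 1 (7.84%) and the ETS core CGGAAG in 2 (21.1%). The GC content of the members' windows ran from 54.3% to 81.0%, with a median of 66.2% against 56.3% over all windows. Windows with and without a Chd4 peak overlapped in this respect. Those with one held 59.3% GC (Gatad2b), 60.7% (Mbd3), 64.0% (Gatad2a), 68.7% (Rbbp4) and 75.7% (Rbbp7), while the windows without one included Mta2 at 61.7%, Hdac2 at 69.7% and Mta1 at 81.0%.

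Gatad2a, whose product ties Mbd3 to Chd4, had the members' highest promoter score in iKO and in siSeh1. Its start site on chromosome 8 had a peak at 69996421 in iKO (score 9.48, rank 206 of 21294), at 69996431 in siSCR (9.70, rank 56 of 2606) and at 69996484 in siSeh1 (19.9, rank 90 of 26935). The 3 positions fall within 63 bp, 37 to 100 bp upstream of the start site. Among genes with a promoter peak, Gatad2a held place 105 of 1134 in iKO, 23 of 358 in siSCR and 73 of 2592 in siSeh1. In Chd4 Ctrl the nearest peak to a Gatad2a start site was 401988 bp away. That list holds 1154 peaks over the whole genome, so a long distance in it says little about 1 gene. Ranks run from the highest deposited score down within 1 list, tied peaks share the best rank, and scores are the authors', on a scale that is not stated, so they are not compared between lists.

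Gatad2b, the paralog of Gatad2a with the same role, had peaks at its RefSeq start site that the deposited names give to another gene. On chromosome 3 a Chd4 peak lay at 90293045 in iKO (score 6.12, rank 743), at 90293112 in siSCR (11.3, rank 40) and at 90293058 in siSeh1 (17.3, rank 134), all within 67 bp. They are 136, 69 and 123 bp from the RefSeq start site of Gatad2b at 90293181. The deposited annotation puts all 3 between genes and names them for the microRNA gene Mir7012, at 22896 to 22963 bp. It assigns peaks to Gatad2b only from a later start site inside the gene, which is why none of them is among the 63. In the sparse Chd4 Ctrl list, of 1154 peaks, the nearest peak to a Gatad2b start site was 6315871 bp away. These peaks were noticed after the values had been seen.

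Mbd3, the bridge of the complex and the member that sets NuRD apart from the form with Mbd2, had peaks on chromosome 10 at 80399660 in siSCR (score 4.15, rank 797), at 80399707 in iKO (5.59, rank 929) and at 80399805 in siSeh1 (8.29, rank 758). They spread over 145 bp, 129 to 274 bp upstream of the start site. Its place among promoter genes was lower than that of Gatad2a in each list, 411 of 1134 in iKO, 266 of 358 in siSCR and 612 of 2592 in siSeh1. A further siSeh1 peak lay 565 bp downstream, in intron 1 of 6 within a CpG island (3.73, rank 10894 of 26935).

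The other promoter peaks were in siSeh1 alone. Rbbp7, a histone-binding subunit, had one 89 bp upstream of its start site on chromosome X at 162760283 (score 8.29, rank 758). Rbbp4, its paralog, had one 44 bp upstream on chromosome 4 at 129335414 (6.28, rank 1289). The start site of Rbbp4 faces that of Zbtb8os, transcribed the other way, so this peak cannot be given to 1 of the pair. Hdac1, a deacetylase, had 2 peaks on chromosome 4, at 129543417 (5.33, rank 2441), 771 bp upstream, and at 129542775 (3.73, rank 10894), 129 bp upstream. The better of the Hdac1 peaks stood near the middle of the siSeh1 promoter genes, at place 1277 of 2592.

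**Figure D1:**
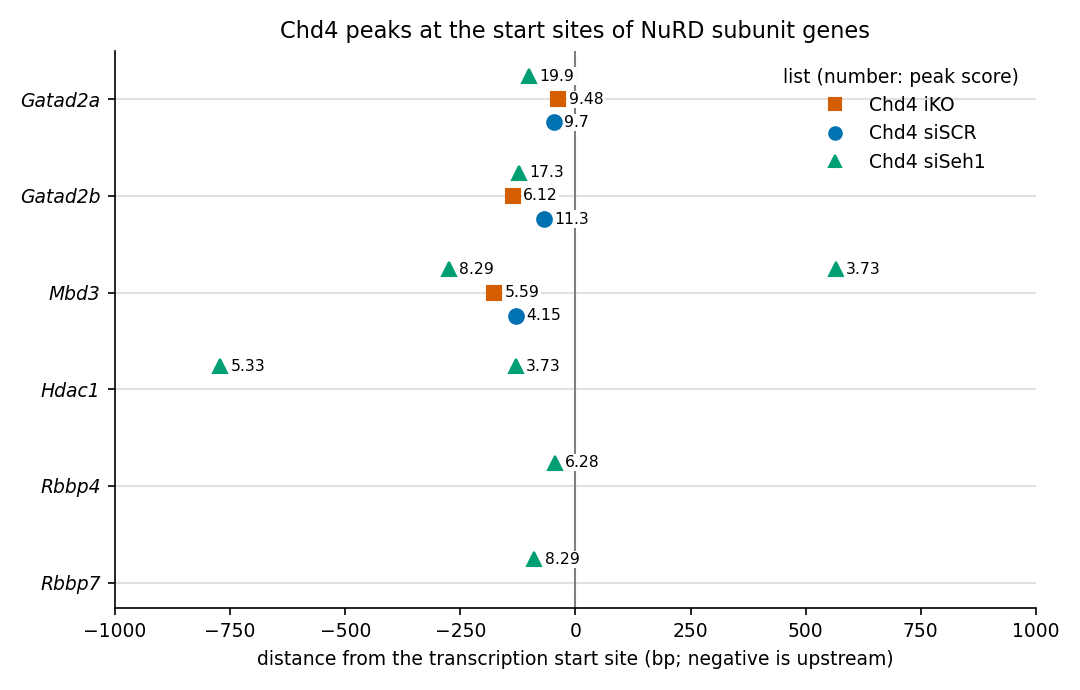
Chd4 peaks within 1000 bp of the start sites of 6 NuRD genes, by distance from the start site in bp, with the deposited score beside each point; Gatad2b is plotted from its RefSeq start site. Gatad2a, Gatad2b and Mbd3 have a peak from each of 3 lists within 300 bp upstream, and Hdac1, Rbbp4 and Rbbp7 have siSeh1 peaks alone.

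By the deposited annotation, then, promoter peaks were listed at 0 of the 10 members in Chd4 Ctrl, where 0.0183% of all protein-coding genes had one. In siSCR they were at 2 of 10, Gatad2a and Mbd3, against 1.64% of all genes. iKO had the same 2 (5.18% of all genes), and siSeh1 had 5 (11.8%). Gatad2a and Mbd3 had a promoter peak in siSCR, iKO and siSeh1 alike, as 1.01% of all genes did, and 3.19% had one in both iKO and siSeh1. No member had a promoter peak in Seh1-flag (1.33% of all genes) or Seh1 Ctrl (1.02%). When any RefSeq start site was used, whatever the deposited name, Gatad2b joined and the counts became 3 in siSCR (2.06% of the 17492 genes with a window), 3 in iKO (6.21%) and 5 in siSeh1 (14.1%), with Hdac1 not among the genes with a window. Gatad2a, Gatad2b and Mbd3 were then in all 3 of these lists, as 1.39% of genes were. Ctrl (0.0286%), Seh1-flag (1.38%) and Seh1 Ctrl (1.05%) stayed at 0.

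iKO was compared with Ctrl, and siSeh1 with siSCR, to ask at which of these genes Chd4 was listed in cells labelled for Seh1 deletion or silencing. The iKO cells were grown with 4-OH-TAM and the Ctrl cells were not, so the drug and the deletion cannot be told apart in the first pair. Against Ctrl, iKO gained Gatad2a and Mbd3 and lost none (5.18% of all genes were gained and 0.0183% lost). The Ctrl list had a promoter peak at 4 of 21887 genes and at no member. All 1134 genes with an iKO promoter peak therefore counted as gained, and no member could be lost. This pair thus adds nothing to the count of iKO promoter peaks. Against siSCR, siSeh1 gained Hdac1, Rbbp4 and Rbbp7 and lost none (10.5% gained, 0.297% lost), and it kept Gatad2a and Mbd3. With any RefSeq start site, iKO gained 3 and lost 0 (6.21% gained and 0.0286% lost), and siSeh1 gained 2, Rbbp4 and Rbbp7, and lost 0 (12.3% gained and 0.246% lost). The genes gained in iKO were listed in the control siSCR as well, so with siSCR as the control list iKO gained 0 members. The perturbed lists were also the longer ones, and the part of their length in these gains was not tested beyond 1 setting. With both lists at the length of the shorter, by highest score, iKO gained 2 members or 1 and siSeh1 gained 3. The iKO count turned on Mbd3, whose score was shared by 313 peaks that straddled the end of the shortened list: it was 2 with all of them kept and 1, Gatad2a, with all left out. With every list at 1154 peaks siSeh1 kept Gatad2a, Mbd3 and Rbbp7, and the peaks of Rbbp4 (rank 1289) and Hdac1 (rank 2441) fell outside. The shares of all genes with siSCR as the control list of iKO, or with shortened lists, are not given here. Member counts at these settings therefore cannot be set against all genes.

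Mta1, Mta2, Hdac2 and Chd4 had no promoter peak in any list. Mta2, a scaffold subunit of the deacetylase core, had no peak of its name and none inside the gene in all 6 lists. Its nearest Chd4 peaks were 1024217 bp away in Ctrl, 139517 bp in siSCR, 122473 bp in iKO and 44011 bp in siSeh1. Mta1, its paralog, had a siSeh1 peak 5542 bp upstream of its start site (score 5.41, rank 1905) and an iKO peak in intron 2 of 20 (3.11, rank 14349). Hdac2, the second deacetylase, had a siSeh1 peak 2899 bp upstream (3.35, rank 13408). Another 10 peaks carry its name, and 4 of these lie 150637 to 190775 bp away in intron 4 of Hs3st5, a sulfotransferase gene.

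**Figure D2:**
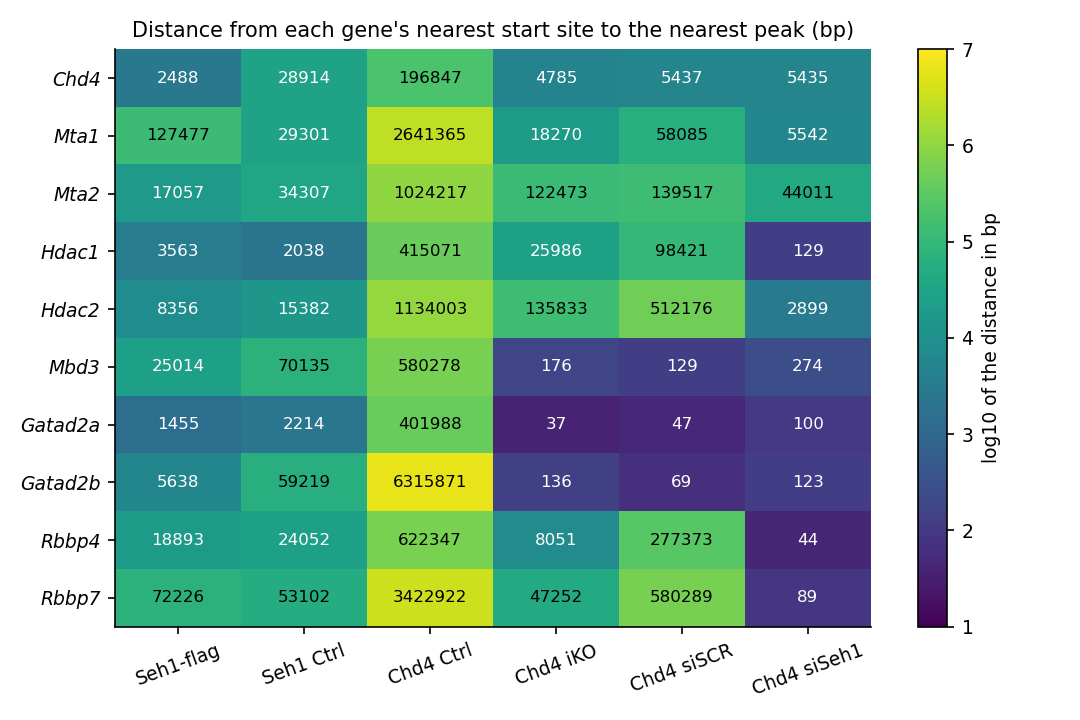
Distance in bp from the start site of each NuRD gene (rows; the nearest where RefSeq gives several) to the nearest peak of each list (columns), with colour on a log10 scale. Distances of 274 bp or less appear in the siSCR, iKO and siSeh1 columns for Gatad2a, Gatad2b and Mbd3 and in siSeh1 for Hdac1, Rbbp4 and Rbbp7. The Chd4 Ctrl column, from the shortest list (1154 peaks), holds none under 196847 bp.

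The Chd4 gene showed another pattern: peaks in its exons and none at its promoter. The gene spans 34612 bp on chromosome 6 (125095980 to 125130591). Inside it lay 7 peaks in siSCR, 8 in siSeh1, 2 in iKO, 0 in Ctrl, 1 in Seh1-flag and 1 in Seh1 Ctrl. All but 1 of the siSCR and 1 of the siSeh1 peaks were in exons, as were the 2 of iKO, so that 15 of 17 Chd4-list peaks in the gene were exonic. None of the 19 peaks in the gene bears its name. The annotation names 15 for the microRNA gene Mir7045, whose start site is nearer, and 4 for the neighbour Nop2. The 1 peak that is named Chd4 lies outside the gene, 2488 bp upstream in Seh1-flag (score 3.55).

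In siSCR the exon peaks were in exons 6, 9, 15, 16, 19 and 24 of the 39 exons of the annotated transcript. Exon 24 had the highest score (10.3, rank 49 of 2606, at 125114036), followed by exon 15 (8.39, rank 83), exon 16 (6.68, rank 188), exon 9 (5.48, rank 355), exon 6 (4.79, rank 485) and exon 19 (3.94, rank 851). All 6 scored above the median of the list, 3.34. Exon 24 was the second of all 61 exon and UTR peaks of siSCR by score, and exon 15 was number 4.

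In siSeh1 the exon peaks were in exons 6, 10, 12, 19, 24, 38 and 39. Exon 6 came out highest (14.4, rank 230 of 26935), then exon 10 (13.3, rank 301), exon 24 (12.2, rank 335), exon 12 (8.72, rank 710) and exon 19 (7.73, rank 907), with exons 38 and 39 tied (6.28, rank 1289). They span 28361 bp from 125101598 to 125129959, against 12436 bp in siSCR. In iKO exons 4 (5.59, rank 929 of 21294) and 6 (4.18, rank 4273) had a peak.

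Exon 6 was the one site that recurred in all 3 of these lists. Its peaks lay at 125101598 in siSeh1, 125101600 in siSCR and 125101611 in iKO, within 13 bp of each other. In exon 19 the siSCR and siSeh1 peaks were 52 bp apart and in exon 24 they were 58 bp apart. A siSCR peak in intron 11 (3.53, rank 1192) lay 174 bp from the siSeh1 peak in exon 12. So 4 of the 7 siSCR peaks in the gene had a siSeh1 peak within 240 bp, and 1 of the 7 had an iKO peak that close. Exons 9, 15 and 16 in siSCR and exons 10, 38 and 39 in siSeh1 had no such partner in the other list.

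**Figure D3:**
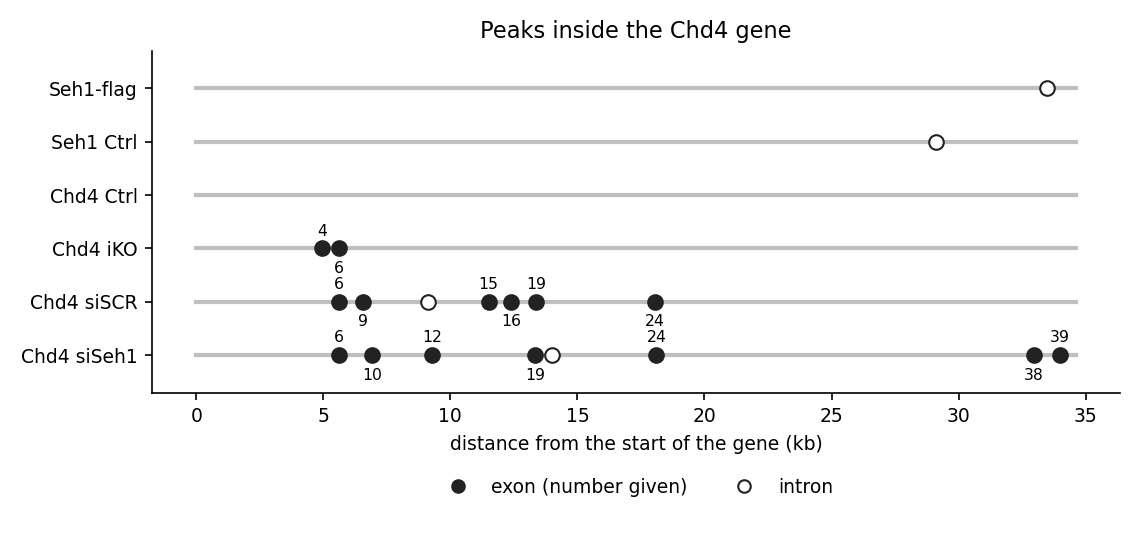
Peaks inside the Chd4 gene in the 6 lists, by distance in kb from the start of the gene, with exon peaks filled and numbered and intron peaks open. The 6 exon peaks of siSCR and the 7 of siSeh1 share positions in exons 6, 19 and 24, and the first 4 kb with the promoter is empty in every list.

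Few genes had exon peaks at all, and Chd4 had the most of any protein-coding gene in siSCR and in siSeh1. An exon or UTR peak was listed in 0.242% of protein-coding genes in siSCR, 2.55% in iKO, 3.53% in siSeh1, 0.0457% in Chd4 Ctrl, 1.05% in Seh1-flag and 1.61% in Seh1 Ctrl. More than 1 was listed in 0.00914% of genes in siSCR, 0.123% in siSeh1 and 0.0914% in iKO. Of the 53 such genes in siSCR, 51 had 1 peak, Slit1, a ligand of axon guidance, had 2 and Chd4 had 6. Of 773 in siSeh1, 746 had 1 peak, 23 had 2, Seh1l, Slit1 and Pygo1 had 3 each and Chd4 had 7. Seh1l is the gene of Seh1 and Chd4 that of the precipitated protein, and what this has to do with their counts was not tested. Pygo1 and Seh1l were named after their values were seen. Chd4 held 9.84% of all exon and UTR peaks in siSCR (6 of 61, exact Clopper-Pearson 95% interval 3.70 to 20.2%, counting error only) and 0.865% in siSeh1 (0.349 to 1.77%). These intervals treat peaks as independent, which peaks in 1 gene of 1 library need not be.

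Other genes with long transcripts mostly had 1 exon peak. Among genes that had an exon peak in siSeh1 and a transcript of at least 30 exons, 57 of 65 had 1 exon peak, 6 had 2 and the highest count besides Chd4 was 3. In siSCR the same comparison gave 7 genes, 5 of them with 1 peak, and a highest count of 2 besides Chd4. Over all annotated genes, exons and UTRs took 9.19% of the exon and intron peaks of siSCR (7.10 to 11.6%) and 8.51% of those of siSeh1 (7.96 to 9.09%), while in Chd4 they took 6 of 7 and 7 of 8. Whether the exon peaks came from chromatin or from RNA, cDNA or another spliced copy of the gene cannot be told from a peak list and was not tested. The gene whose exon counts over the 6 lists were most like those of Chd4 was Slit1, with 2 exon or UTR peaks in Seh1-flag, 1 in iKO, 2 in siSCR and 3 in siSeh1, a summed difference of 11. The next 9 genes were tied at 12, among them Dhodh, Eppk1 and Lmna. Chd4 had 15 exon peaks over the 6 lists, so a gene with no exon peak at all differs from it by 15. The nearest genes were thus only a little closer than such a gene, and Chd4 had 0 exon peaks in Seh1-flag. No gene shared its pattern closely.

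In iKO Chd4 shared its count of 2 with 16 other genes, and Alb, Serpina1c and Scd1, named after their values were seen, had 3 each. Alb and Serpina1c are genes of abundant liver proteins. Of 14 such liver genes, chosen after the values were seen, 12 had exon or UTR peaks in iKO, 21 peaks in all, and 0 had one in each of the other 5 lists. Their part in the 2 Chd4 exon peaks of iKO was not tested. Within 100 kb of Chd4 lie 13 other protein-coding genes, Gapdh among them, and these had 0 exon or UTR peaks in all 6 lists. At most 3.53% of all genes had one in any list, so this zero says nothing particular about the neighbours. Of these neighbours Ncapd2, a condensin subunit, had a promoter peak in siSCR and siSeh1, and Lpar5, a lysophosphatidic acid receptor, had one in iKO and siSeh1. Of all genes, 1.64% had one in siSCR, 5.18% in iKO and 11.8% in siSeh1.

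**Figure D4:**
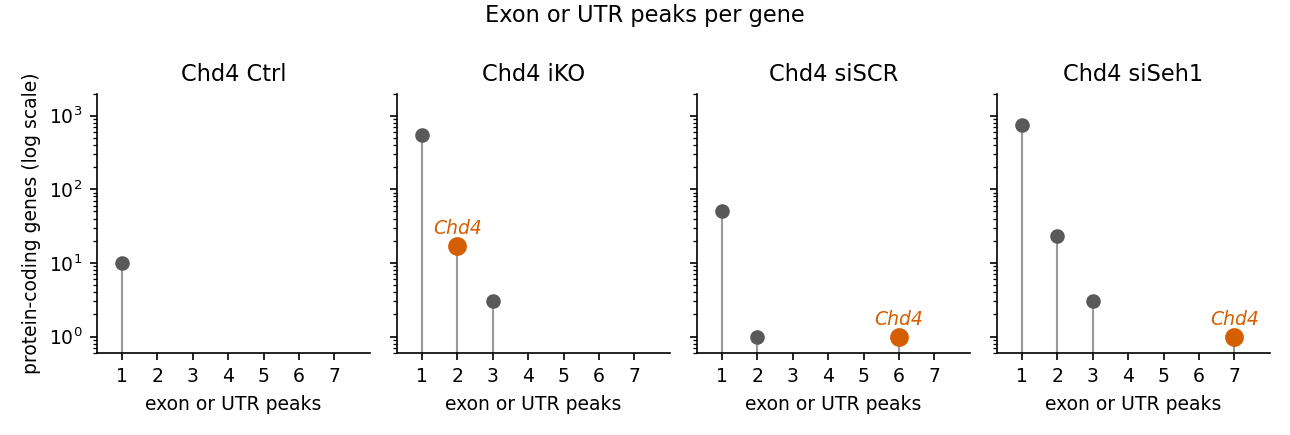
Number of protein-coding genes (log axis) with a given number of exon or UTR peaks in each of the 4 Chd4 lists, with the point that holds Chd4 in orange. Chd4 stands alone at 6 in siSCR and at 7 in siSeh1, is among the genes with 2 in iKO, and has none in Ctrl.

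The other members had no exon peak under their own name. Mbd3 had 1 in siSCR, in exon 6 of 7 at 80393147 on chromosome 10 (score 5.56, rank 341), which the annotation names for the neighbour Mex3d, so that it is not among the 63 peaks. In iKO intron peaks were in Gatad2a (introns 1 and 2 of 12), Mta1 and Rbbp4 (intron 3 of 11), with scores of 3.11 to 3.17, below the list's median of 3.39. In siSeh1 they were in Gatad2a (intron 1, score 2.75), Gatad2b (intron 1 of 9 in a LINE element, 3.73), Mbd3 (3.73) and Chd4 (intron 20, 4.51), the last 3 above the list's median of 3.35. The siSCR peak was that in intron 11 of Chd4. Members with an intron peak numbered 3 of 10 in iKO (16.5% of all genes), 4 in siSeh1 (21.1%), 1 in siSCR (2.27%) and 0 in Ctrl (1% of all genes).

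The Seh1 lists were asked whether Seh1 lay at the genes of the complex that holds Chd4. Seh1-flag had an intron peak in 6 of the 10 members, Chd4, Hdac1, Hdac2, Gatad2a, Gatad2b and Rbbp4 (21.3% of all genes), and Seh1 Ctrl in 3, Chd4, Hdac1 and Gatad2b (17.6%). In Chd4 the Seh1-flag peak lay in intron 38 of 38 in an (A)n simple repeat (score 5.64, rank 6572 of 24961). The Seh1 Ctrl peak there was in intron 37, from 125124925 to 125125230, in a SINE. The Seh1-flag peaks in Hdac1, Hdac2 and at 69984587 in Gatad2a lay in SINEs. Those in Rbbp4 and Gatad2b lay in an LTR element and a T-rich stretch. The Seh1 Ctrl peak in Hdac1 was in a SINE, and that in Gatad2b was in no repeat. With Seh1-flag cut to its 1154 highest-scored peaks, its count of members fell to 0. The closest Seh1-flag peak to a member's start site was at Gatad2a, 1455 bp downstream in intron 1 (4.79, rank 11614). That peak was 1492 bp from the Gatad2a promoter peak of Chd4 in iKO and 1555 bp from that in siSeh1.

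Seh1 peaks at these genes overlapped a Chd4 peak at 1 place. A Seh1 Ctrl interval upstream of Gatad2a, at 69998368 to 69998828 on chromosome 8, came within 81 bp of a siSCR peak at 69998909 (2.34, rank 2366 of 2606), and the pair overlapped once the point was widened to 240 bp. Over the whole lists 43 of 2606 siSCR peaks, or 1.65%, overlapped a Seh1 Ctrl interval. The other members' peaks of both Seh1 lists overlapped no Chd4 peak. Over whole lists, 0.621% of Seh1-flag peaks overlapped siSeh1, and 1.13% of Seh1 Ctrl peaks overlapped iKO. Counted from the short Chd4 lists, the shares with Seh1-flag were higher, 10.5% of Ctrl peaks and 6.83% of siSCR peaks. Ctrl had 0 member peaks and siSCR had 10. The Seh1 lists shared 0 of 7 member peaks with each other, where 0.845% of all Seh1 Ctrl peaks overlapped Seh1-flag. These zeros say nothing particular about the members.

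Members' peaks also coincided between the Chd4 lists. Of the 10 siSCR peaks, 6 overlapped a siSeh1 peak, where 15.8% of all 2606 siSCR peaks did, and 3 overlapped an iKO peak (13.1%). Of the 8 iKO peaks, 3 overlapped a siSeh1 peak (4.79% of all iKO peaks). The 6 were the promoters of Gatad2a and Mbd3 and 4 sites inside Chd4. These are counts over a handful of neighbouring peaks and carry no test.

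The remaining genes of the complex were then counted in the same way. Of 6 paralogs and remaining subunits (Chd3, Chd5, Mta3, Mbd2, Cdk2ap1 and Cdk2ap2), 1 had a Chd4 promoter peak in each of siSCR (1.64% of all genes), iKO (5.18%) and siSeh1 (11.8%). This was Cdk2ap2, a small subunit, with scores of 5.10, 8.39 and 11.2, at 100 to 192 bp upstream of its start site. The other 5 had none within the deposited annotation. Chd3, Mta3 and Mbd2 had no RefSeq window, so they could not be checked at any RefSeq start site. Of the 3 with a window, Cdk2ap2 alone had a peak there in siSCR, iKO and siSeh1. Among all genes with a window 2.06%, 6.21% and 14.1% did. Chd5, a neuronal paralog of Chd4, had 1 exon or UTR peak in iKO (2.55% of all genes had any) and Mta3 had 1 in siSeh1 (3.53%). Of 15 proteins known to bind NuRD or bring it to chromatin, Pwwp2a had a promoter peak in siSCR (7.53) and siSeh1 (8.79), and Zfp687 (14.8) and Zfpm1 (5.06) had one in siSeh1, which makes 1 of 15 in siSCR, 3 in siSeh1 and 0 in iKO. With any RefSeq start site Sall1 joined them in iKO and siSeh1. That makes 1 and 4 of the 13 with a window, against 6.21% and 14.1% of all genes with one. Sall3 and Sall4 had no window.

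The complexes that share Hdac1, Hdac2, Rbbp4 or Rbbp7 with NuRD had Chd4 promoter peaks at 8 of 16 genes in siSeh1 (Ctrl had 0), at 6 in iKO and at 3 in siSCR, against 11.8%, 5.18% and 1.64% of all genes. With any RefSeq start site Sin3a joined them in iKO and siSeh1, and Sap130 was not among the genes with a window. The counts in siSeh1, iKO and siSCR were then 8, 6 and 2 of 15, against 14.1%, 6.21% and 2.06% of all genes with a window. Ezh2, the methyltransferase of Polycomb repressive complex 2, had one in siSCR (7.53), iKO (11.2) and siSeh1 (21.1), 55 to 139 bp upstream of its start site. So did Hmg20b of the CoREST complex (3.90, 4.74 and 7.73) and Sap130 of the Sin3 complex (7.01, 7.44 and 26.5). Suz12 and the chromatin assembly factor gene Chaf1a were in iKO (5.49 and 10.4) and siSeh1 (11.8 and 4.73). Rcor1 (3.75) was in iKO alone, and Sap18, Chaf1b and Hat1 (7.71, 4.30 and 4.58) in siSeh1 alone. Of 6 neural stem cell genes, Hes1 had one in iKO (3.46) and siSeh1 (17.3), Sox2 had one in siSeh1 (6.86), and Nes, Pax6, Hes5 and Vim had none. In the Seh1 lists, promoter peaks in these 4 gene lists were at Bend3, a NuRD-binding protein, and at Suz12, both in Seh1-flag with a score of 4.56. Of all genes, 1.33% had a promoter peak in Seh1-flag.

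**Figure D5:**
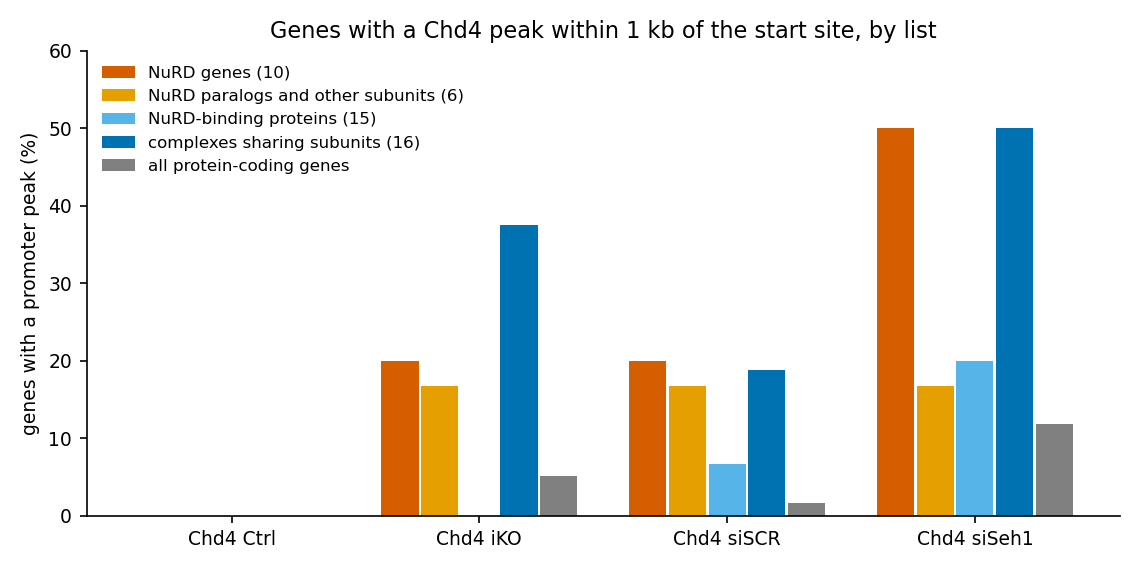
Share of genes (%) with a Chd4 peak within 1 kb of the start site by the deposited annotation, for the 10 NuRD genes, 3 related gene lists and all protein-coding genes, in each Chd4 list. The NuRD genes stand at 20% in iKO and siSCR and at 50% in siSeh1, level with the complexes that share subunits in siSeh1, and Ctrl has none in any of the 4 gene groups.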

How the data were processed

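ChIP-seq peak lists of 6 libraries in 6 groups of 1 were used. Per the file headers, the deposited lists had been annotated with HOMER on mm10. The submitters' processing notes list Bowtie2 and HOMER, with no version, and human rather than mouse builds. No source used here gives the peak caller, its threshold or whether samples were pooled. In 5 lists a peak is 1 position with a deposited score, and in Seh1 Ctrl it is an interval whose deposited score is 0, so that list has no ranks. The other deposited column used is the distance to the TSS in bp.

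The members and gene lists were chosen with earlier results of these data known. Exon and intron peaks were given to the gene of the transcript named in the annotation, because peaks inside Chd4 carry other gene names; the design had foreseen the gene name. The genes named are the 10 members, all 6 paralogs, members of the lists of binding proteins and sharing complexes with a Chd4 promoter peak, up to 5 genes most like Chd4 in exon peaks (not all are reported here), and neighbours within 100 kb. Points were widened to 240 bp and shared at 1 bp or more. For 99.9% of peaks the gene identifier matched the RefSeq table of GRCm38.p6. Python 3.11.15, numpy 2.4.6, pandas 2.3.3, scipy 1.17.1 and matplotlib 3.10.9 were used. Code was tested on simulated data, and 400 planted genes and 500 overlaps were recovered. Promoter sequences are from RefSeq (GRCm38.p6). No test between conditions was possible with 1 library per group.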

Additional observations from a re-analysis of the deposited data

How the results depend on the processing

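No paired analysis was possible because each group had 1 library and the labels give no replicate numbers. Of 164 recomputed values for 37 counts, 133 stayed within 1.5 times the count reported and 31 moved. The causes were not tested. Many of the values that stayed were counts of 0 that remained 0, and some of these could not change. Chd4 Ctrl had 0 member peaks, so no width could give it a shared one, and a stricter score cannot raise a count of 0. The tally is therefore no measure of how stable the other counts are. With the gene name Chd4 required, the peaks inside Chd4 came to 0 in Seh1-flag, Seh1 Ctrl, iKO, siSCR and siSeh1. Members with a promoter peak came to 1 in Seh1-flag with a window of 2000 bp, to 1 in siSCR at a score of at least 5 and to 3 in siSeh1 at the length of the shortest Chd4 list. At a score of at least 5, members with an exon, UTR or intron peak came to 3 in Seh1-flag, 1 in iKO and 1 in siSeh1, and peaks inside Chd4 to 1 in iKO and 4 in siSCR. At the length of the shortest Chd4 list, chosen after the data were seen for peaks inside Chd4, such members came to 0 in Seh1-flag, 0 in iKO and 1 in siSeh1, and peaks inside Chd4 to 0 in Seh1-flag, 0 in iKO and 5 in siSeh1. The iKO values at this length depend on 313 tied peaks, split by position, a setting added after the data were seen. With all of them kept, such members and peaks inside Chd4 came to 1 each, and with all left out to 0 each. Members with a promoter peak in iKO and members gained there came to 2 with the ties kept and to 1 with them left out. By gene span, members with such a peak in siSCR came to 2. With the other control list, chosen after the data were seen, members gained came to 0 in iKO and 5 in siSeh1. Seh1-flag member peaks shared with siSeh1 came to 1 with points of 500 or 1000 bp, and siSCR member peaks shared with Seh1 Ctrl came to 0 with points of 100 bp. Members with a promoter peak at any RefSeq start site or by the deposited annotation, also chosen after the data were seen, stayed within 1.5 times in every list. The unknown depth of each library limits every count of absent peaks. The share of all genes at each of these settings is not given, so these member counts have no background beside them.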
